A study of Mus musculus with 2 samples.

Results

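Ciliated-like medullary thymic epithelial cells (mTECs) are thymic epithelial cells that carry transcripts of motile cilia. They were picked from 2 single-cell libraries of sorted mouse mTECs by a rule on measured values. A cell counted as ciliated-like when at least 3 of the 5 genes Foxj1, Dynlrb2, Ccdc153, Tmem212 and Dnah9 had a unique molecular identifier (UMI, 1 per captured transcript), Ptprc had 0 UMIs and the tuft cell genes Trpm5, Dclk1 and Alox5ap together were under 10 UMIs per 10000. The rule took 123 of 13307 cells, 85 in the library labelled Foxn1-Cre(+) Ikarosfl/fl and 38 in the library labelled Foxn1-Cre(+) Ikaros+/fl. Of these, 73 cells had 4 or 5 of the markers (59 in the fl/fl library and 14 in the +/fl library), and 50 had exactly 3 (26 in the fl/fl library and 24 in the +/fl library). Because measured values chose the cells, their levels are described here without a test.

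The study asked how conditional loss of Ikaros (the zinc-finger transcription factor made by Ikzf1) changes gene expression in mTECs that were sorted as EPCAM+ and Ly51- from mouse thymus. Both libraries carry the Foxn1-Cre transgene, which is active in thymic epithelium, and at least 1 floxed Ikaros allele, so neither is free of Cre or of a floxed allele. The fl/fl library is homozygous for the floxed allele and the +/fl library is heterozygous. Treatment is given as not applicable, and the labels give no age, no sex, no number of mice and no deleted exons. With 1 library per genotype there was no replicate and no test between genotypes. The intervals below are exact 95% intervals that cover counting error only.

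The names the submitters gave the matrices assign knockout and control the other way round from the genotype labels, so every direction is given as labelled. The libraries also differed in sex-linked transcripts. Xist, the RNA of X chromosome inactivation, had 0 UMIs in the 85 ciliated-like cells of the fl/fl library and 1036 UMIs in 37 of the 38 cells of the +/fl library, whereas the Y-linked Ddx3y had 73 UMIs in 40 cells of the fl/fl library and 0 UMIs in the +/fl library. The labelled genotype and the sex of the mice cannot be told apart. The libraries held 99871505 UMIs in 11095 barcodes (fl/fl) and 85260592 UMIs in 7304 barcodes (+/fl), of which 8208 and 5099 cells passed the filter of 500 genes, 1000 UMIs and at most 15% mitochondrial UMIs. The 2 libraries shared 25 barcodes of all those deposited, and of the ciliated-like cells 0 in the fl/fl library and 1 in the +/fl library had such a barcode. The cells served for comparison were the 11731 other Epcam-positive cells (7190 fl/fl and 4541 +/fl).

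A motile cilium is built on a basal body, a modified centriole, around an axoneme of doublet microtubules. Outer and inner dynein arms drive its bending, radial spokes and the central pair control it, and intraflagellar transport carries its parts. Multiciliated cells, known from the airway, oviduct and brain ventricles, make many centrioles at a time under GEMC1 (Gmnc) and multicilin (Mcidas), with FOXJ1 and the RFX factors switching on axonemal genes. In the thymus, ciliated-like cells are counted among the mimetic mTECs, which carry programs of peripheral tissues.

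RFX factors bind the X-box, a DNA element whose core letters are GTTGCC. Promoter windows of 250 bases before to 50 bases after each start, from RefSeq on GRCm38.p6, were searched for these letters on either strand. Of 32851 mouse promoters, 12.5% held them. Among the 86 genes of the axonemal and other ciliated-cell lists, 71 were in the table, and 38 of their 82 promoters (46.3%) held the letters. The forkhead letters GTAAACA were in 3.65% of all promoters and in 3 of those 82 (3.66%). Of the 5 rule genes, 4 were in the table. Dynlrb2 and Ccdc153 held GTTGCC, and Tmem212 and Dnah9 did not. A match is a description of the letters and not a site. Only these exact letters were searched, so a window without them is not shown to lack a site. Shown here are the promoters of the rule genes Dynlrb2 (chr8:116504765-116505064, plus strand) and Ccdc153 (chr9:44240427-44240726, plus strand), of the cilium tip gene Sntn (chr14:13670626-13670925, plus strand), of Lrrc23 (chr6:124779678-124779977, minus strand), which holds the letters on each strand, and, for contrast, of Tmem212 (chr3:27896319-27896618, minus strand), all written 5′ to 3′ with GTTGCC or its reverse GGCAAC in capitals.
Dynlrb2: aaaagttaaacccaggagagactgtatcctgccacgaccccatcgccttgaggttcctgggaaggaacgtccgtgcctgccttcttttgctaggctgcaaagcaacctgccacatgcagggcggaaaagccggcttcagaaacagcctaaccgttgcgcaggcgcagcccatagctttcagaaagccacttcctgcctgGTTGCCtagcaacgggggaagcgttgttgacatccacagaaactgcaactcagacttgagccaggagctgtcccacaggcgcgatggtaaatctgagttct
Ccdc153: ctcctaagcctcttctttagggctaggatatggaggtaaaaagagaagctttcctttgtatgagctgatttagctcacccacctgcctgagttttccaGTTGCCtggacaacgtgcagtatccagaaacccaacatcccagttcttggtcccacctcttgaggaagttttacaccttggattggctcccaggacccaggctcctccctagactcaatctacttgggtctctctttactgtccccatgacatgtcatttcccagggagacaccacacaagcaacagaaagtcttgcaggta
Sntn: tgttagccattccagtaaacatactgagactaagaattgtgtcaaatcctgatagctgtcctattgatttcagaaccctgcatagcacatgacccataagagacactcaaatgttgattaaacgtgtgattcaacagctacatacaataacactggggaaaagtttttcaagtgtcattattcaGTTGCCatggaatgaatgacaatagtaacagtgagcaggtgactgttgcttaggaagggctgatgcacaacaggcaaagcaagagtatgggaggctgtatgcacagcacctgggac
Lrrc23: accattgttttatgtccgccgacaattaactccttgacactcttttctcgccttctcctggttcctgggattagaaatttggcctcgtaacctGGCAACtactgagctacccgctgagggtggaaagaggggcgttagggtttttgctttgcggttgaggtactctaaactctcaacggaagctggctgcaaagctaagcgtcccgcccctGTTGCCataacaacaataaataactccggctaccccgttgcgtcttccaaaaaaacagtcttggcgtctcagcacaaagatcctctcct
Tmem212: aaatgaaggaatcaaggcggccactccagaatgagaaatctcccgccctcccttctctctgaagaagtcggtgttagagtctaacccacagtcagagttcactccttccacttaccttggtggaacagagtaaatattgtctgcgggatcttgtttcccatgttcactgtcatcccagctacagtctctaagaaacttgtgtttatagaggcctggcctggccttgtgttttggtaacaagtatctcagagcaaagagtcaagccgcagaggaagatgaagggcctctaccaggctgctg
The capitals begin at position -51 from the start in Dynlrb2, at -152 in Ccdc153, at -66 in Sntn and at -157 and -39 in Lrrc23.

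The label was checked against 62 axonemal genes that the rule did not use (dynein arms, assembly factors, radial spokes, central pair and doublet microtubule proteins). In cells with 5 markers their summed level had a median of 103 UMIs per 10000 in the fl/fl library and 116.2 in the +/fl library, and in cells with 4 markers 77.6 (20 cells) and 74.2 (3 cells). In cells with exactly 3 markers the medians were 7.004 in the fl/fl library and 3.25 in the +/fl library, against 2.95 and 2.97 in the cells just outside the rule, with 2 markers (293 and 182 cells). The +/fl median was close to that of the 2-marker cells, and the fl/fl median lay above it, with an upper quartile of 32.2 in the 3-marker cells and 5.35 in the 2-marker cells. A median of 39 of the 62 genes was detected in the 5-marker cells of the fl/fl library and 47 in those of the +/fl library, against 11.5 and 7.5 in the 3-marker cells. The cells with 4 or 5 markers therefore carried an axonemal program, and most 3-marker cells did not. With a limit of 25 UMIs per 10000, chosen after the values were seen, 56 of 59 and 13 of 14 cells with at least 4 markers lay above it, against 8 of 26 and 1 of 24 cells with 3 markers. Between 20 and 35 per 10000 lay 9 ciliated-like cells of the fl/fl library and 0 of the +/fl library.

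**Figure D1:**
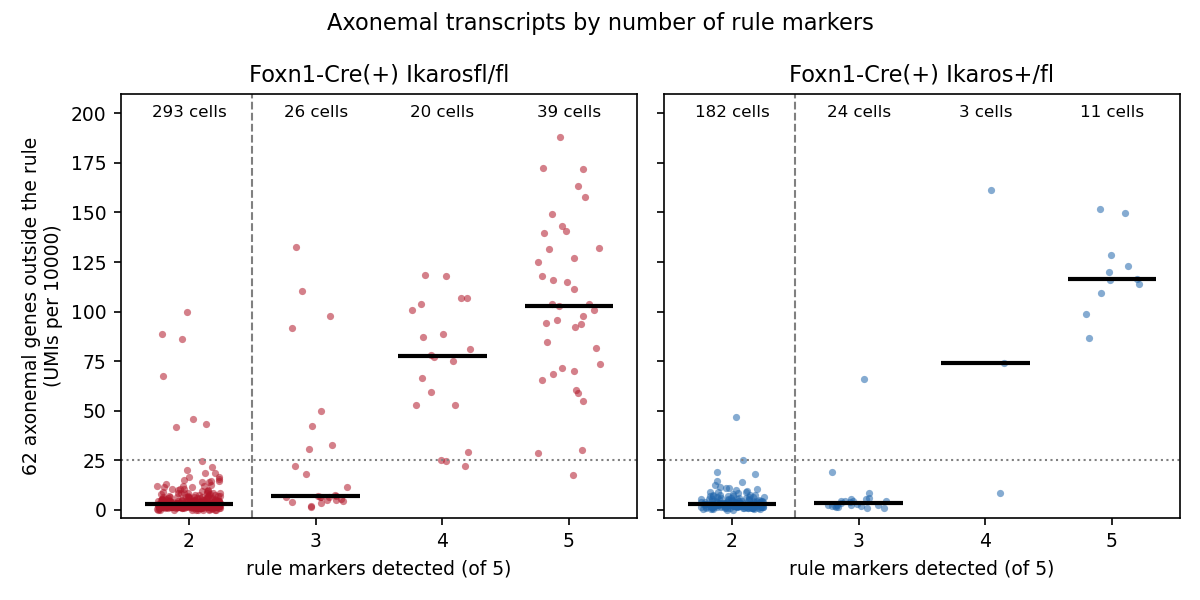
Summed level of 62 axonemal genes outside the rule (vertical axis, UMIs per 10000) in each cell by the number of rule markers detected (horizontal axis), fl/fl library left and +/fl library right; the bars are medians, the dashed line is the rule and the dotted line 25 per 10000. Cells with 4 or 5 markers lie mostly above the dotted line (56 of 59 and 13 of 14), and cells with 3 markers mostly below it.

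The 3-marker cells of the +/fl library had one make-up. In 21 of 24 the 3 markers were Foxj1, Ccdc153 and Dnah9, and in 11 of those each marker had a single UMI. In the fl/fl library 4 of 26 had that combination and 0 had a single UMI of each, while 18 of 26 had Dynlrb2. Aire, the regulator of peripheral antigen expression in mTECs, was detected in 18 of 26 and 20 of 24 of the 3-marker cells. These cells were also deeper, with medians of 19832 UMIs (fl/fl) and 30769 UMIs (+/fl), against 12433 and 18644 in the cells with at least 4 markers. Rule genes were also found at low levels in mTECs outside the rule. Foxj1 was detected in 24.1% and 21.2% of other Aire-positive cells (medians of 12817 and 17463 UMIs), against 1.83% and 6.02% of Ptprc-positive, Epcam-negative cells (medians of 4414 and 6667 UMIs). The 3-marker cells are therefore called by their marker number below, and values for the cells with 4 or 5 markers, which the label describes, are given first.

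Foxj1, the forkhead factor of motile ciliogenesis, stood at 623 CPM (UMIs of the gene per 1000000 UMIs summed over the cells) (574 to 674) in the 59 fl/fl cells and 673 CPM (590 to 764) in the 14 +/fl cells with at least 4 markers. It stood at 154 and 53.6 CPM in the 3-marker cells and at 27.9 and 15.03 CPM in the other Epcam-positive cells. Dynlrb2, a light chain of the dynein that moves cargo inside cilia, was at 1097 CPM (1032 to 1164) in fl/fl cells and 1674 CPM (1541 to 1815) in +/fl cells with at least 4 markers, and at 1.95 and 1.01 CPM in the other cells. The 2 intervals of Dynlrb2 do not overlap, and those of Foxj1 do, but they cover counting error only and not variation between cells. In the +/fl library 1 cell gave 178 of the 587 Dynlrb2 UMIs, and in the fl/fl library 1 cell gave 110 of 1072. Ccdc153 was at 748 CPM in the fl/fl cells and 750 CPM in the +/fl cells with at least 4 markers, against 1.53 and 5.15 CPM in the other cells. Tmem212 was at 617 CPM (569 to 668) and 878 CPM (783 to 982), against 0.574 and 0.246 CPM. Dnah9, an outer arm heavy chain, was at 144 and 108 CPM, against 13.6 and 8.42 CPM. Of the 20 fl/fl cells with exactly 4 markers, 15 lacked only Dnah9. All of these values were used by the rule.

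**Figure D2:**
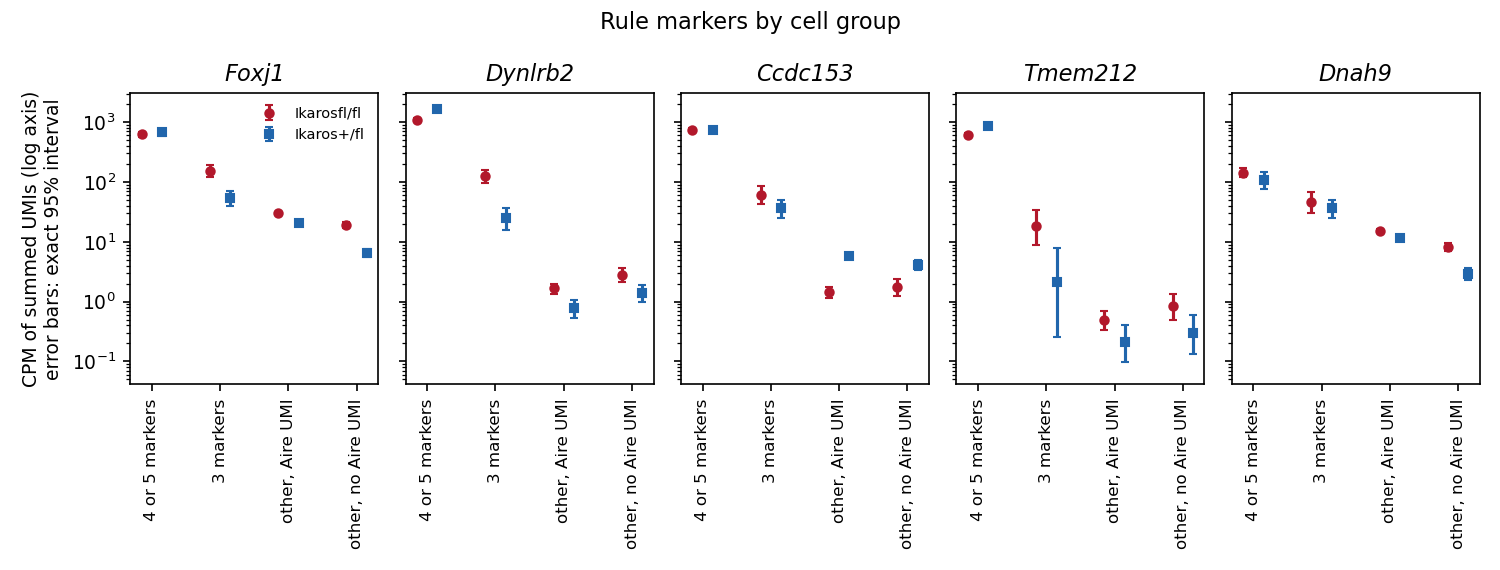
Summed UMIs of the 5 rule genes as CPM (log axis, points with exact 95% Poisson intervals) in cells with 4 or 5 markers, cells with 3 markers, and other Epcam-positive cells with and without Aire, fl/fl left of +/fl. Every rule gene is highest in the cells with 4 or 5 markers in both libraries, for example Dynlrb2 at 1097 and 1674 CPM.

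Gene groups were compared with the other Epcam-positive cells as log2 ratios of CPM with 1 CPM added, and a gene was called at a 4-fold difference. Among 10777 genes tested, 9.35% were called higher and 4.3% lower in the cells with at least 4 markers, and the median log2 ratio of all genes was 0.04. For all ciliated-like cells the same shares were 5.62% (587 of 10452 genes) and 1.39% (145 genes). UMIs are not divided by gene length, so levels are compared within a gene and not between genes.

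The regulators of ciliogenesis were higher in the cells with at least 4 markers for 9 of the 12 genes outside the rule, with a median log2 ratio of 3.15. Mcidas was at 106 CPM (86.9 to 129) in fl/fl cells and 111 CPM (79.1 to 152) in +/fl cells, against 1.34 and 0.188 CPM in other cells. Ccno, a cyclin-like protein needed for centriole production, was at 331 and 513 CPM, against 5.41 and 3.02 CPM. Deup1, the organiser of the deuterosome on which new centrioles form, was at 331 and 499 CPM, against 1.86 and 0.637 CPM. These 3 genes of centriole production were thus far above the other cells in both libraries. Trp73, whose p73 protein acts upstream of FOXJ1, was at 45.0 and 34.2 CPM, against 1.18 and 0.738 CPM. Rfx2 and Rfx3 were higher by 2.64 and 2.29 on the log2 scale, and Myb by 2.20. The cell cycle factors E2f4 (0.69) and E2f5 (0.91), which work with multicilin, were not past 4-fold, and Gmnc was at 2.05 and 2.85 CPM, under the filter.

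Dynein arms and their assembly factors were higher without exception. All 9 outer arm and docking genes outside the rule were called, with a median log2 ratio of 3.53. All 15 genes of the inner arms and the nexin link were called, with a median of 5.40, and all 9 assembly factors, with a median of 3.19. Dnah12, an inner arm heavy chain, was at 231 CPM (202 to 263) in fl/fl cells and 240 CPM (191 to 297) in +/fl cells with at least 4 markers, against 1.47 and 0.434 CPM in other cells. Dnah5, the main outer arm heavy chain, was at 171 and 140 CPM, against 11.3 and 35.6 CPM. Its log2 ratio was 3.81 in the fl/fl library and 1.95 in the +/fl library, where its level in other cells was higher. Ccdc39, a ruler protein of the inner arm repeat, was at 371 and 462 CPM, against 2.08 and 2.37 CPM. Zmynd10, which assembles dynein arms in the cytoplasm, was at 192 and 262 CPM, against 0.884 and 0.448 CPM.

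Radial spoke and central pair genes were called for 11 of 13, with a median log2 ratio of 4.83. Rsph1, a spoke head protein, was at 554 CPM (509 to 603) in fl/fl cells and 998 CPM (896 to 1108) in +/fl cells, against 9.58 and 16.0 CPM in other cells. Hydin, of the central pair, was at 93.1 and 123 CPM, against 2.81 and 0.521 CPM. The exceptions were Rsph3b (1.51) and Cfap221, which was under the filter. Doublet microtubule proteins were called for 16 of 17, with a median of 5.27. Tekt1, a tektin filament protein, was at 285 and 308 CPM, against 1.93 and 1.58 CPM. Tubb4b, a tubulin also used outside cilia, was at 2295 and 3365 CPM, against 265 and 245 CPM, and Nme7 (1.97) lay just under 4-fold.

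Other genes known from ciliated cells were called for 19 of 19 outside the rule, with a median log2 ratio of 5.59. Sntn, a protein of the cilium tip, was at 236 CPM (207 to 269) in fl/fl cells and 288 CPM (235 to 350) in +/fl cells, against 0.207 and 0.116 CPM. Its promoter carries GTTGCC at -66. Tppp3, a microtubule-bundling protein, was at 1051 and 1286 CPM, against 48.8 and 90.1 CPM, so that it was also present in other mTECs. Sec14l3, a lipid transfer protein of ciliated airway cells, was at 114 and 128 CPM, against 1.42 and 0.217 CPM, but was found in only 24 of the 73 cells.

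Genes that cilia share with other cells showed smaller ratios. All 18 intraflagellar transport genes were above 0 and 10 were called, with a median log2 ratio of 2.05. Traf3ip1 (Ift54) was at 291 and 485 CPM, against 10.2 and 12.8 CPM, whereas Ift140 (1.86) and Ift172 (1.70) were not past 4-fold. Centriole genes, a list that shares Deup1, Ccno and Cdc20b with the regulators, were called for 12 of 15, with a median of 3.04. Plk4, the kinase that starts centriole duplication, was at 214 and 308 CPM, against 25.6 and 13.1 CPM, and Pcm1, of the centriolar satellites, at 287 and 556 CPM, against 87.4 and 111 CPM. Of 6 cytoplasmic dynein genes outside the rule 1 was called, Dynlt1f (2.37), and the heavy chain Dync1h1 had a ratio of -0.49.

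**Figure D3:**
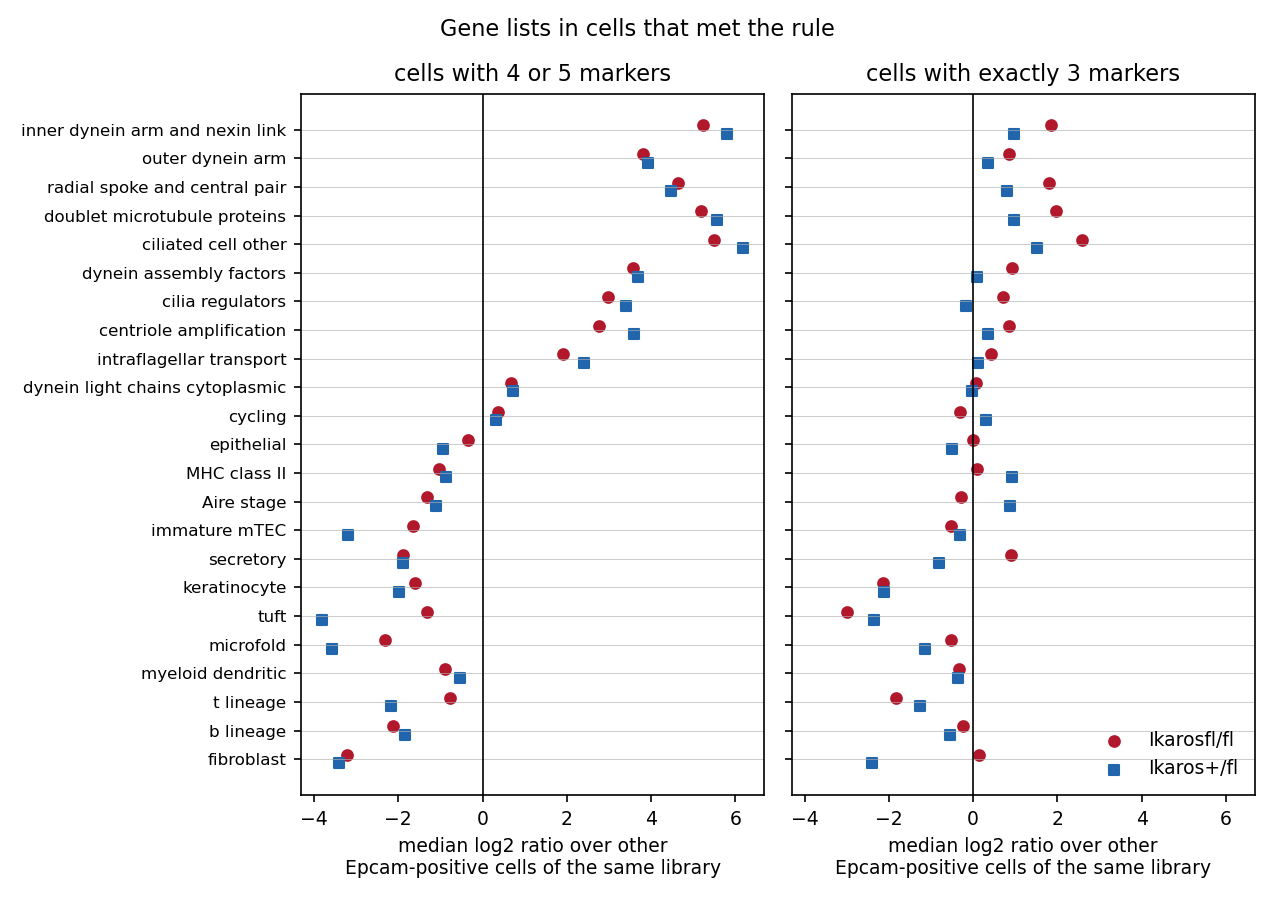
Median log2 ratio of each gene list over other Epcam-positive cells (horizontal axis) in cells with at least 4 markers and in cells with 3 markers, circles fl/fl and squares +/fl. The axonemal lists lie between 3.57 and 5.81 in the cells with at least 4 markers and between 0.08 and 1.97 in the cells with 3 markers.

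In the 3-marker cells the same lists were closer to 0. The median log2 ratio was 0.41 for outer arm, 1.28 for inner arm, 1.35 for spoke and central pair and 1.48 for doublet genes, with 0 of 9, 5 of 15, 2 of 13 and 4 of 17 genes called higher. Of 10452 tested genes 1.05% were called higher and 1.57% lower in the 3-marker cells, with a median of -0.004. The list of other ciliated-cell genes had a median of 2.59 in the fl/fl library and 1.53 in the +/fl library, with 11 of 19 called. Sntn was at 18.5 CPM in the fl/fl cells with 3 markers and 0 CPM in the +/fl cells with 3 markers, and Mcidas at 22.2 and 1.07 CPM.

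The 15 genes with the highest ratios outside the rule were Gm19935, Sntn, Meig1, 4833427G06Rik, 1700001C02Rik, Deup1, BC051019, Gm867, Spag17, Lrrc23, Morn5, Cfap206, Dnali1, Zmynd10 and Vpreb3. Their log2 ratios ran over all ciliated-like cells from 6.02 (Vpreb3) to 6.83 (Gm19935). Gm19935, a gene without a given function, was at 406 CPM (367 to 448) in fl/fl cells and 362 CPM (302 to 431) in +/fl cells with at least 4 markers, against 0.953 and 0.347 CPM. Meig1, needed for sperm formation in mice, was at 764 and 1252 CPM, against 3.56 and 3.21 CPM. Spag17, of the central pair, was at 218 and 382 CPM, against 0.907 and 0.188 CPM. Dnali1, an inner arm light chain, was at 237 and 317 CPM, against 1.11 and 0.593 CPM. Lrrc23, a spoke protein of sperm, was at 711 and 1069 CPM, against 4.96 and 3.96 CPM. All 15 were under 5 CPM in the other cells of either library, and no single cell gave more than 31.4% of a gene's UMIs in either library. Of the 13 found in the promoter table, 5 held GTTGCC.

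Of 14 genes of the sperm flagellum and spermatids 11 were under the filter in the cells with at least 4 markers. Of the 3 that passed it, 2 (Spata18 and Dnah8) were called higher and 0 lower, against 9.35% and 4.3% of all genes tested. Both were under 10 CPM in the other cells of either library. They passed the filter through the cells with at least 4 markers alone, so a lower call was not open to them. The list median of -0.12 takes in the genes under the filter. Odf1, Akap4, Prm1, Tnp1, Cabyr and Dnah17 had 0 UMIs in the cells with at least 4 markers, which allows up to 2.26 CPM (3 counts). Spata18 (mieap) was at 68.5 and 125 CPM, against 0.172 and 0.0434 CPM in other cells, and Dnah8, a heavy chain best known from sperm, at 52.2 and 57.0 CPM, against 3.98 and 6.54 CPM.

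The cells with at least 4 markers were epithelial. Of these, 57 of 59 and 14 of 14 had an Epcam UMI, and of all ciliated-like cells 82 of 85 and 38 of 38. Epcam was at 852 CPM in fl/fl cells and 488 CPM in +/fl cells with at least 4 markers. In the other cells, which were chosen for Epcam, it was at 1114 and 1078 CPM with Aire and 1377 and 1404 CPM without. Krt8 was at 2688 CPM in fl/fl cells and 3214 CPM in +/fl cells, against 1786 and 1839 CPM in other cells. Of 11 epithelial genes 4 lay above 0 and 7 below, with a median log2 ratio of -0.31. None was called higher and 1 lower, the basal keratin Krt5, at 119 and 34.2 CPM, against 395 and 714 CPM. Markers of immature mTECs were lower for 3 of 8 (median -2.16), among them Ccl21a, a chemokine of the medulla, at 438 and 188 CPM, against 2439 and 3712 CPM. Ly6a (Sca-1) on the same list ran the other way, at 2329 CPM (2235 to 2427) in fl/fl cells and 1796 CPM (1659 to 1942) in +/fl cells, against 484 and 261 CPM.

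Markers of the Aire stage and of antigen presentation were lower, mostly by less than 4-fold. Aire was at 66.5 CPM (51.3 to 84.8) in fl/fl cells and 97.0 CPM (67.1 to 135) in +/fl cells with at least 4 markers, against 328 and 147 CPM in other cells. It was detected in 37 of the 73 cells, at 0.745 UMIs per 10000. Aire was also found in Ptprc-positive, Epcam-negative cells, at 122 CPM (99.8 to 146; 63 of 164 cells) in the fl/fl library and 41.3 CPM (29.9 to 55.6; 32 of 133 cells) in the +/fl library. Whether those cells make Aire was not tested, so their level is no measure of background. The level in cells with at least 4 markers was below theirs in the fl/fl library and above it in the +/fl library. There 1 cell under the axonemal limit, which was chosen after the values were seen, had 6.32 UMIs per 10000. Without that cell the +/fl level was 0.468 UMIs per 10000, inside the interval of the Ptprc-positive cells. Of 10 genes of the Aire stage 1 was called lower, Fabp9 (-2.37), with a list median of -0.79. All but 1 of the 10 MHC class II genes lay below 0 (median -0.85) and 0 were called. H2-Aa was at 2149 and 1235 CPM, against 4539 and 2137 CPM. In the 3-marker cells H2-Aa was at 4639 and 3738 CPM and Aire at 467 and 317 CPM.

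Markers of other mTEC types were low. Microfold genes were called lower for 7 of 8 (median -2.29), and tuft genes outside the rule for 6 of 9 (median -2.35), and the tuft list is held down in part by the limit in the rule. The 10 lowest genes were Pth, Lgals7, Crct1, Ccl6, Klk1b16, Rgs13, Fabp1, Ccl20, Tspan6 and Adgrg6, with log2 ratios over all ciliated-like cells from -5.69 (Pth) to -3.32 (Adgrg6). They include genes of parathyroid (Pth), keratinocytes (Lgals7, Crct1), microfold cells (Ccl6, Ccl20), enterocytes (Fabp1) and tuft cells (Rgs13). Cd4, Cd8b1 and Cd79a had 0 UMIs in the cells with at least 4 markers, as had Col1a1 and Pdgfra of fibroblasts. Among genes past the filter, secretory (3 of 9), keratinocyte (3 of 8), muscle (3 of 4) and fibroblast (2 of 2) genes were called lower only. So were T-lineage (1 of 2), myeloid (1 of 5), B-lineage (1 of 3) and erythroid (1 of 1) genes, and ionocyte genes (0 of 2) were not called. These lists held 13, 10, 9, 6, 10, 10, 7, 5 and 6 genes in that order, the rest of them under the filter. The rule held down the T-lineage, myeloid and B-lineage lists in part, as it barred Ptprc, which 11.1% of the other cells had. Fibroblast and erythroid genes summed to 6.78 and 0.753 CPM in the cells with at least 4 markers. They passed the filter of 10 CPM through the other cells alone, so a higher call was not open to them. Muscle genes summed to 21.1 CPM, against 154 CPM in other cells. Of 9 neuroendocrine genes 1 was called lower and 1 higher, Scg2, whose UMIs came from 1 of the 73 cells. Dissociation stress genes had a median log2 ratio of -0.68, with 0 of 10 called.

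The cells with at least 4 markers differed among themselves in genes of centriole production and in the regulator Myb. Mcidas, Ccno, Deup1, Cdc20b and Myb are together called centriole genes in this grouping. Of these 5, none was detected in 14 cells (13 fl/fl and 1 +/fl), 1 in 21 cells (18 and 3) and 2 or more in 38 cells (28 and 10). The 1 gene was Myb in 15 of the 21 cells and Deup1 in 6, so the first 2 groups differ mostly in Myb. Myb was also detected in 11 of 26 (fl/fl) and 16 of 24 (+/fl) of the 3-marker cells. The +/fl cell with none had 8.31 axonemal UMIs per 10000, under the limit used above. Dynlrb2 was at 4.14 UMIs per 10000 (3.25 to 5.20) where none was detected, at 6.94 (5.79 to 8.26) where 1 was, and at 15.1 (14.3 to 15.9) where 2 or more were. Rsph1 was at 2.46, 2.90 and 8.22 where none, 1 and 2 or more were detected. Within the fl/fl library Dynlrb2 was at 4.91, 6.34 and 13.4 and Rsph1 at 2.76, 2.74 and 6.79 in the same groups. Both genes were thus highest beside 2 or more centriole genes.

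Ccdc153, Tmem212 and Tppp3 did not follow that order. With both libraries together Ccdc153 was at 7.22 (6.03 to 8.58), 15.7 (14.0 to 17.7) and 5.97 (5.49 to 6.48) UMIs per 10000, Tmem212 at 7.50, 11.8 and 5.81, and Tppp3 at 12.3, 20.5 and 9.15. Within the fl/fl library Ccdc153 was at 8.54 (7.12 to 10.2), 13.4 (11.7 to 15.4) and 5.89, Tmem212 at 9.02 (7.55 to 10.7), 9.54 (8.05 to 11.2) and 4.78, and Tppp3 at 14.5 (12.6 to 16.5), 16.9 (14.9 to 19.1) and 8.18. In that library all 3 genes were lowest beside 2 or more centriole genes. Ccdc153 alone was higher with 1 than with none beyond the counting error of summed UMIs. The fl/fl cells with none include 4 deep cells (16186 to 26216 UMIs) of low axonemal level (17.6 to 29.0 per 10000). Ccdc153 was at 0.618 to 3.02 UMIs per 10000 in them. Deep cells weigh more in a summed level, and how far the order of none and 1 rests on these cells was not tested. For Tmem212 and Tppp3 the pooled gap between none and 1 rests on 4 +/fl cells, 1 with none (0 and 1.33 UMIs per 10000) and 3 with 1 (23.1 and 38.9). Foxj1 lay between 4.81 and 8.42 in the 3 pooled groups.

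**Figure D4:**
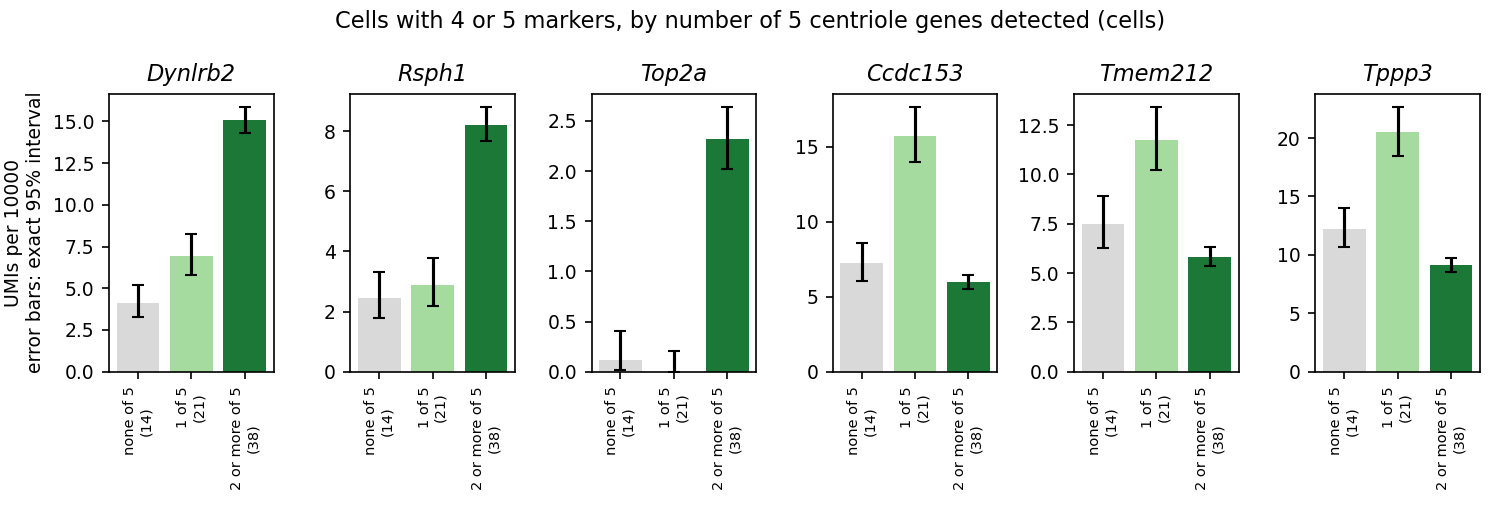
UMIs per 10000 of Dynlrb2, Rsph1, Top2a, Ccdc153, Tmem212 and Tppp3 (error bars exact 95% Poisson intervals) in cells with 4 or 5 markers that had none (14 cells), 1 (21 cells) or at least 2 (38 cells) of Mcidas, Ccno, Deup1, Cdc20b and Myb, both libraries together. In the second group the gene detected was Myb in 15 cells and Deup1 in 6. Dynlrb2, Rsph1 and Top2a are highest in the third group (15.1, 8.22 and 2.32), and Ccdc153, Tmem212 and Tppp3 in the second (15.7, 11.8 and 20.5). Within the fl/fl library the intervals of Tmem212 and of Tppp3 overlap between the first and second groups, and the 1 +/fl cell of the first group lies under the axonemal limit.

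Depth differed between these groups, with medians of 11268 UMIs where none of the centriole genes was detected, 8527 where 1 was and 21621 where 2 or more were. Its part in the grouping was not tested. Across the 73 cells, which share 2 libraries and differ in depth, the per-cell level of the centriole genes had a Spearman correlation of 0.49 with Dynlrb2, -0.36 with Tmem212, -0.47 with Tppp3 and 0.34 with total UMIs. Tmem212 and Ccdc153 correlated at 0.83, and the axonemal level correlated at -0.59 with H2-Aa and at -0.03 with Aire. The correlation with Dynlrb2 was 0.39 in the fl/fl library and 0.91 in the +/fl library (59 and 14 cells).

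Several mitotic genes were high as well. Cdc20 was at 147 CPM in fl/fl cells and 274 CPM in +/fl cells with at least 4 markers, against 9.83 and 12.01 CPM in other cells, and Ccnb1, Cdk1 and Ccnb2 were called higher (2.70, 2.53 and 2.03). Top2a was at 166 and 182 CPM, against 39.9 and 44.5 CPM (log2 ratio 1.99, just under 4-fold). Among the cells with at least 4 markers Top2a had 0.112 UMIs per 10000 where no centriole gene was detected (2 of 14 cells), 0 where 1 was (0 of 21) and 2.32 where 2 or more were (21 of 38). Mki67 had a log2 ratio of -0.12 against other cells, and in the same 3 groups it was at 0.112 (2 of 14 cells), 0.0547 (1 of 21) and 0.414 UMIs per 10000 (15 of 38). The replication gene Mcm5 was called lower (-2.65). In all, 4 of 14 cycling genes were called higher and 1 lower.

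Ciliated-like cells made up 1.04% (0.828 to 1.28) of the cells in the fl/fl library and 0.745% (0.528 to 1.02) of those in the +/fl library, a ratio of 1.39 (0.937 to 2.09). The interval of this ratio includes 1. With at least 4 markers the shares were 0.719% (0.548 to 0.926) and 0.275% (0.150 to 0.460), a ratio of 2.62 (1.44 to 5.08). With exactly 3 markers they were 0.317% and 0.471%, a ratio of 0.673 (0.371 to 1.22). The ratio for cells with at least 4 markers was thus above 1 beyond counting error, and the interval for 3-marker cells included 1.

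These shares depend on what else a library held. A further 4 fl/fl cells and 13 +/fl cells had at least 3 markers but were over the Ptprc or tuft limit. Cells that met the Ptprc and tuft gene limits numbered 6953 of 8208 in the fl/fl library and 2838 of 5099 in the +/fl library. Among them the share of ciliated-like cells was 1.22% and 1.34%, a ratio of 0.913 (0.616 to 1.38), and with at least 4 markers it was 0.849% and 0.493%, a ratio of 1.72 (0.949 to 3.34), an interval that includes 1. For 3-marker cells it was 0.374% and 0.846%, a ratio of 0.442 (0.244 to 0.804), below 1. Detection of markers also depends on depth, and ciliated-like cells had medians of 16012 UMIs (fl/fl) and 27139 UMIs (+/fl). After thinning each cell to 5000 UMIs, which left out 2531 and 1141 shallower cells, 46 of 5677 cells (0.810%) and 13 of 3958 cells (0.328%) met the rule, a ratio of 2.47 (1.31 to 4.98). Doublets were kept in these values. The highest doublet scores, a preset 6.57% (fl/fl) and 4.08% (+/fl) of all cells past the filter, took in 5 of 59 and 0 of 14 cells with at least 4 markers. With 3 markers they took in 3 of 26 and 2 of 24.

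**Figure D5:**
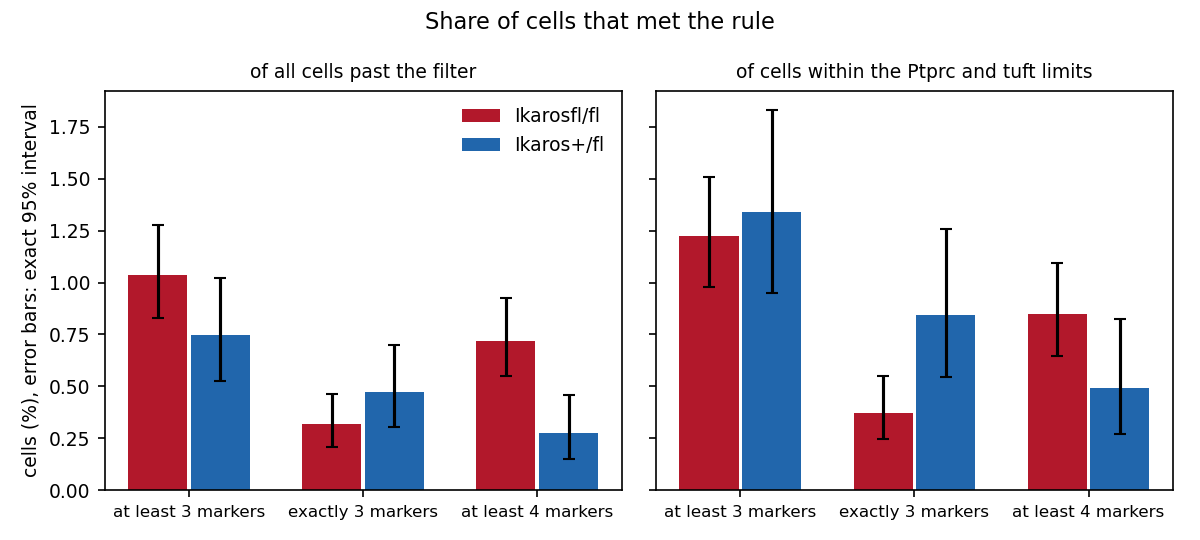
Share of cells (percent, error bars exact 95% Clopper-Pearson intervals) with at least 3, exactly 3 and at least 4 markers, out of all cells past the filter (left) and cells within the Ptprc and tuft limits (right), fl/fl left of +/fl. With at least 4 markers the fl/fl share is above the +/fl share in both panels (0.719% and 0.849%, against 0.275% and 0.493%), and with exactly 3 markers it is below.

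Ikzf1 was lower than in other cells in the cells with at least 4 markers, and not in those with 3. In the cells with at least 4 markers it had 12 UMIs, 12.3 CPM (6.34 to 21.4), in the fl/fl library and 6 UMIs, 17.1 CPM (6.28 to 37.2), in the +/fl library, against 37.1 and 63.9 CPM in other Epcam-positive cells. Those other cells had 43.8 and 78.8 CPM with Aire and 16.6 and 39.8 CPM without. The fl/fl interval takes in the level without Aire, and the +/fl interval lies below it. The Ptprc limit did not apply to the other cells, and Ptprc-positive, Epcam-negative cells had Ikzf1 at 106 and 93.2 CPM. In the cells with 3 markers it had 22 UMIs, 40.8 CPM (25.6 to 61.7), in the fl/fl library and 87 UMIs, 93.2 CPM (74.7 to 115), in the +/fl library. A 3' count checks a deletion only where the deleted exons are counted, and these are not in the labels.

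Between the libraries a gene was called at a 2-fold difference. In the cells with at least 4 markers 5.4% of 2129 genes were called higher and 3.48% lower in the fl/fl library, and the median log2 ratio of all genes was -0.18, so ratios are read against that value. Of the 62 axonemal genes 38 were tested, and their median was -0.40, or -0.29 with TMM scaling, where the median of all genes was -0.06. Across the lists of regulators, dynein arms, assembly factors, spokes, doublet proteins, intraflagellar transport and other ciliated-cell genes, 0 of the tested genes were called in either direction. Of 11 centriole genes tested 2 were called lower in the fl/fl library. Sass6, of the centriole cartwheel, was at 67.5 CPM (52.2 to 85.9) in fl/fl cells and 174 CPM (133 to 223) in +/fl cells, and Cep135 at 72.6 CPM (56.7 to 91.6) and 160 CPM (121 to 207). Their intervals do not overlap, but 14 cells carry the +/fl value. The tested MHC class II genes lay above 0 in the fl/fl library for 8 of 8, with a median of 0.87, and 2 were called higher. In other Epcam-positive cells the same genes had a median of 0.90. Dissociation stress genes lay above 0 for 10 of 10, with a median of 0.87 and 3 called higher, against a median of 0.05 in other cells. Immature mTEC genes lay above 0 for 4 of 4 tested, with a median of 1.42 and 3 called higher, against -0.58 in other cells. The cause of these differences was not tested.

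Over all ciliated-like cells 6.59% of 1911 genes were called higher and 5.29% lower in the fl/fl library. Here the mixture of 4- and 3-marker cells differs between the libraries (59 and 26 against 14 and 24), and the axonemal lists had medians above 0, such as 1.06 for inner arm genes. The genes with the highest ratios were Spink1, Zg16, Ccl8, Reg3b, Scgb1a1 and Apoa1, which were found in 4 to 17 of the 85 fl/fl cells. Spink1, a pancreatic trypsin inhibitor, had 2433 UMIs in 17 of 85 fl/fl cells, 45.5% of them in 1 cell, and 2 UMIs in 1 of 38 +/fl cells. Zg16 had 222 UMIs in 4 cells and 0 UMIs in the +/fl library. The lowest were Xist, Iglc1, Gpx6, Stmn2, Cyp26a1 and Mucl2. Gpx6, a glutathione peroxidase, was spread over more cells, with 24 UMIs in 13 of 85 fl/fl cells and 440 UMIs in 25 of 38 +/fl cells. It was also lower in other Epcam-positive cells of the fl/fl library (24.2 CPM) than in those of the +/fl library (155 CPM). Of the 579 Mucl2 UMIs in the +/fl library 88.4% came from 1 cell.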

How the data were processed

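The deposited matrices hold raw UMI counts per gene and barcode for 31053 genes. The submitters' processing notes list Cell Ranger and Seurat, with no role or version for either, and the file headers name software version 3.1.0. The build behind the matrices is not given in the sources used here. Positions come from RefSeq on GRCm38.p6, and the promoter counts and offsets alone depend on them, with no expression value doing so.

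Samples were grouped by the genotype label. The members and gene lists were chosen with earlier results of these data known. Cells with at least 500 genes, 1000 UMIs and at most 15% mitochondrial UMIs were kept. Counts of a group of cells were summed and scaled to CPM with exact Poisson 95% intervals, shares have exact Clopper-Pearson intervals, and ratios of shares exact conditional binomial ones. UMIs were counted, and intervals leave out variation between mice. Genes needed 10 CPM in either group and 20 UMIs over both (against other cells), or 100 CPM and 30 UMIs (between libraries). Differences are log2 ratios with 1 CPM added, and 4-fold or 2-fold was the threshold of a call. Counts of 0 give no lower bound of a ratio here. No count model was fitted, since each genotype had 1 library.

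Named genes were the 15 highest and 10 lowest ratios against other cells among genes with at least 50 CPM and 50 UMIs and the same sign in both libraries, the 6 highest and 6 lowest between libraries, the rule genes and list members. Scrublet, run through scanpy 1.11.5, marked 0% and 0.0196% of cells, too few to count as working, so doublets were kept, and leaving out the 539 fl/fl and 208 +/fl cells with the highest scores was an alternative. TMM factors came from edgeR 4.0.16. The procedure was also run on simulated counts with Poisson error only, drawn from 1 shared profile without variation between cells or mice. Genes were changed 8-fold against a 4-fold call, so high recovery was built in. Against other cells 100 of 100 raised genes and 99% of lowered genes were recovered over 9587 genes, with 0% of unchanged genes called. With at least 4 markers 97% of lowered genes were recovered, and between libraries 0.482% of unchanged genes were called.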

Additional observations from a re-analysis of the deposited data

Results flagged for a closer look

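The Aire-stage genes had a median log2 ratio of ciliated-like over other Epcam-positive cells of -0.66 in the fl/fl library and 0.76 in the +/fl library, and the MHC class II genes -0.56 and 0.59. The signs are opposite in the 2 libraries, and the difference was not tested. In the cells with at least 4 markers both lists lay below 0 in both libraries, at -1.32 and -1.10 for Aire-stage genes and -1.04 and -0.88 for MHC class II genes. In the 3-marker cells, which are 26 of 85 and 24 of 38, they were at -0.28 and 0.86 and at 0.10 and 0.92.

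Barcodes that failed the cell filter also met the marker rule. There were 21 of 2887 such barcodes (0.727%) in the fl/fl library and 5 of 2205 (0.227%) in the +/fl library, where a count of 0 allows up to 0.104% and 0.136%. All of them were over the mitochondrial limit, with median mitochondrial shares of 23.0% and 29.2%. At least 4 markers were found in 13 and 2 of them, and 21 and 4 had at least 25 axonemal UMIs per 10000. These barcodes are in no share or level of the report.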

How the results depend on the processing

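No paired analysis was possible because each genotype had 1 library. The log2 ratio of the shares (fl/fl over +/fl) was 0.47. It was 1.39 with at least 4 markers, 1.30 after thinning to 5000 UMIs and 1.51 for cells with at least 25 axonemal UMIs per 10000 (chosen after seeing the data), and changed sign to -0.13 out of cells within the Ptprc and tuft limits, of which the +/fl library had fewer. Under the other 9 alternatives it lay between 0.09 (at least 2 markers) and 1.03 (thinned to 2000 UMIs). Of genes higher than in other cells (587), 224 were called with 10 CPM added, 1008 with at least 4 markers (576 of the 587 among them) and 1039 with the axonemal limit. Genes lower (145) numbered 227 with the mean of per-cell CPM, 36 with 10 CPM added, 261 with no filter, 463 with at least 4 markers and 547 with the axonemal limit. Leaving out 1 library gave 526 (without fl/fl) to 693 (without +/fl) genes higher and 162 (without +/fl) to 322 (without fl/fl) lower. Between libraries, no filter raised the counts of genes higher and lower to 2878 and 1400, against 126 and 101 with it, as genes with few UMIs then entered. The cause of the other changes was not tested.

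Signs changed for these values. Against other cells, Bpifa1 (2.11) was at -3.39 with at least 4 markers and -3.46 with the axonemal limit, and against other cells within the limits Alox5ap was at 0.51 and Sh2d6 at 0.02. Between libraries, inner arm genes (median 1.06) were at -0.18 and -0.17 with at least 4 markers and with the axonemal limit, over the 4 genes tested in all ciliated-like cells, and Stmn2 at 0.61 with the axonemal limit. Over all ciliated-like cells, TMM scaling put the median of all genes between libraries at -0.12, against 0.02. Depth limits the values of the 14 +/fl cells with at least 4 markers most.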

Other observations

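Vpreb3, known from the surrogate light chain of B-cell precursors, was among the 15 highest genes, at 494 CPM in fl/fl cells and 567 CPM in +/fl cells with at least 4 markers, against 4.15 and 1.55 CPM in other Epcam-positive cells. The B-lineage genes Cd79a and Ms4a1 had 0 UMIs in the same cells. Vpreb3 was detected in 67 of the 73 cells. Its neighbour Gm867, with 2384 bases between the genes on chromosome 10 and the opposite strand, was also among the 15, at 233 and 197 CPM, against 0.333 and 0.188 CPM.

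Plvap, a protein of endothelial diaphragms, was at 41.9 CPM in fl/fl cells and 51.3 CPM in +/fl cells with at least 4 markers, against 9.05 and 2.01 CPM in other cells, and was detected in 18 of the 73 cells. The other endothelial genes Cdh5, Kdr and Emcn had 0 UMIs there. Among secretory genes, Bpifa1 was at 964 CPM in the fl/fl cells and 3095 CPM in the +/fl cells with 3 markers, but at 32.7 and 8.55 CPM in the cells with at least 4 markers.

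Cells that met the Ptprc and tuft limits and reached 25 axonemal UMIs per 10000 without 3 markers numbered 36 in the fl/fl library and 8 in the +/fl library. A median of 3 and 5 of the 62 axonemal genes was detected in them. The 7 fl/fl cells among them with 2 markers had 10 to 33 of these genes detected, and the 2 such +/fl cells 11 each. Cells of this kind with an Epcam UMI were counted among the other Epcam-positive cells.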
